A study of Oryza sativa with 58 samples.

Results

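A set of 150 rice genes was described that had high transcript levels in young leaf and root of phytotron-grown seedlings and low levels in panicle and mature leaf of field plants. The members were chosen from the 57174 genes listed by MH63 identifiers in 24 RNA-Seq libraries. For each variety, a score was the lower of the log2(mean FPKM + 1) values of young leaf and root, minus the higher of those of panicle and mature leaf. The members are the 150 genes with the highest minimum score over the 3 varieties, so every contrast of the seedling organs with the field organs is given below as a description and was not tested. FPKM is the number of sequenced fragments divided by gene length and library size, so levels of different genes can be set side by side. An FPKM value does not show how many fragments lie behind it.

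The varieties were MH63 and ZS97, the parents of a widely grown hybrid, and Nip (Nipponbare), the variety of the rice reference genome. Each variety had 2 libraries of each of 4 organs, and no variety carried a transgene or a treatment. Roots came from seedlings kept on wet filter paper for 7 days and young leaves from hydroponic plants at 2 weeks, both in a phytotron with 14 h of light at 32 °C and 10 h of dark at 28 °C. Seedlings of about 20 days were moved to the field, where mature leaves at floral induction and young panicles of 1.5 to 4.5 cm were cut. The organ, the age and the place of growth therefore cannot be told apart in any contrast of phytotron with field, and neither can organ, age and culture in the contrast of young leaf with root. In RNA from whole organs, fewer cells of a type and less RNA per cell cannot be told apart.

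A young leaf builds photosynthetic cells, and a seedling root takes up water and ions and anchors the plant, so the main functions of both organs differ. The young panicle is a growing organ of branches and flowers, while a mature leaf is a fully grown source of sugar. Many genes are used by all organs of a plant, and others follow 1 organ or 1 stage of growth. The identifiers of the members are not paired with gene names in the sources used here, so their molecular roles are not described, and the organ labels were not checked against marker genes.

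The members held between 0.949 and 1.68% of the FPKM sum in the 6 young leaf libraries and between 1.92 and 2.101% in the 6 root libraries. In panicle the share was between 0.0493 and 0.0897%, and in mature leaf between 0.0300 and 0.0741%. The sums themselves lay between 458020 and 1512110. Steps between low values gave a depth relative to the first MH63 young leaf library. Its median was 0.949 for young leaf libraries, 1.23 for root, 0.842 for panicle and 0.380 for mature leaf. ZS97 panicle replicate 1 was the shallowest library at 0.176, followed by Nip young leaf replicate 2 at 0.231, and Nip young leaf replicate 1 was at 0.440. The mature leaf libraries were between 0.307 and 0.705. Low values are less certain in shallow libraries.

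The minimum score ran from 1.75 to 5.18 on the log2 scale with a median of 2.25, so that the weakest member still had an FPKM + 1 value 3.37 times higher in the lower seedling organ than in the higher field organ. A score above 0 in each variety was found for 1892 genes. The last members inside the limit were MH11g0661400, MH01g0697500 and MH06g0099100, with minimum scores of 1.758, 1.755 and 1.753. The first genes outside it were MH03g0659500, MH01g0684800 and MH01g0162400 with 1.750, 1.749 and 1.743, so there was no gap at the limit. Nip gave the lowest score for 91 members, ZS97 for 37 and MH63 for 22.

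**Figure D1:**
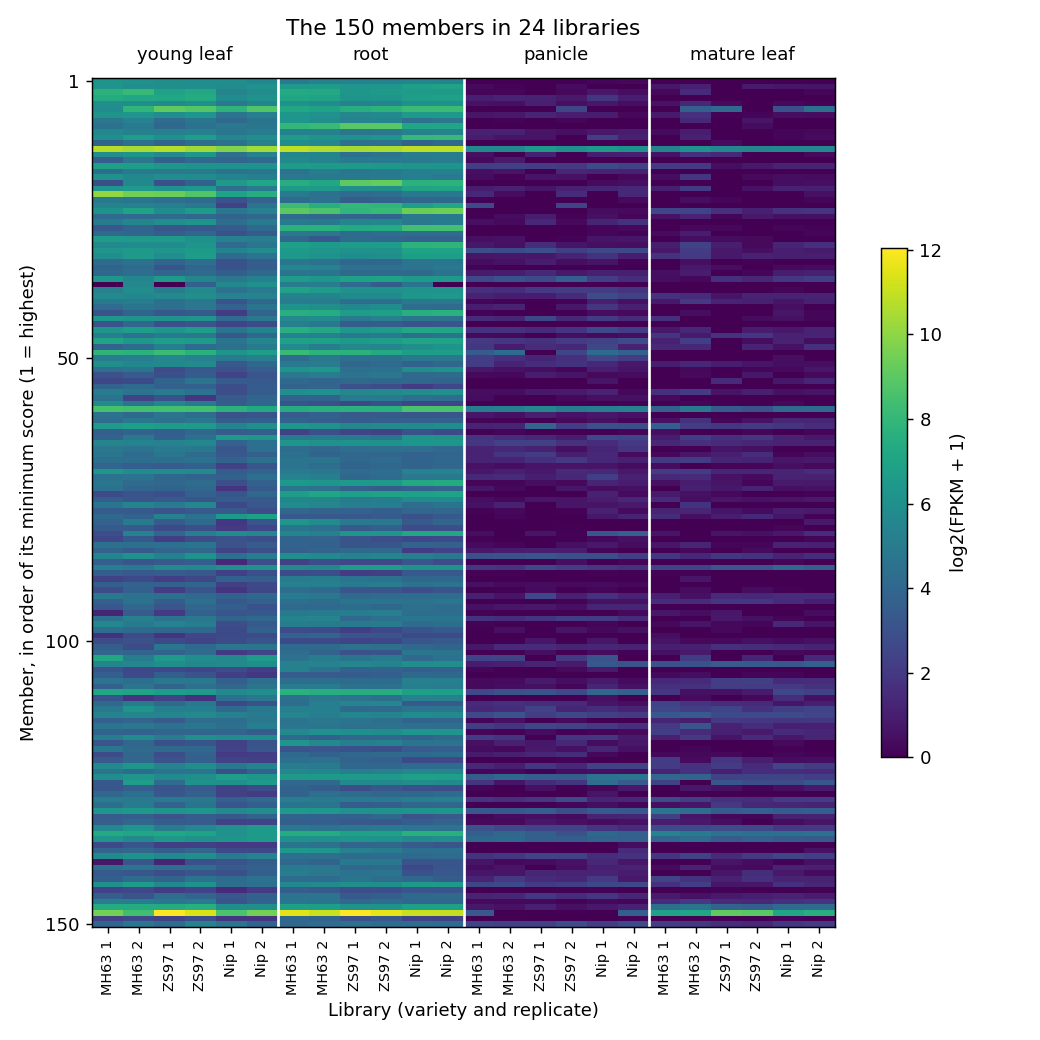
Each row is 1 of the 150 members in order of its minimum score, each column 1 of the 24 libraries, and the colour is log2(FPKM + 1). The 12 seedling columns on the left are brighter than the 12 field columns on the right, which is what the rule asked for, and 3 dark cells at 0 mark MH05g0053300 in seedling libraries.

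Averaged over the varieties, the median member had 21.3 FPKM in young leaf and 27.5 in root, against 0.623 in panicle and 0.635 in mature leaf. In 144 members the lowest of the 12 seedling libraries lay above the highest of the 12 field libraries, and all but 1 were separated in this way within each variety. The exception was MH05g0053300, named here after its values were seen. This gene was listed at 0 in MH63 young leaf replicate 1, ZS97 young leaf replicate 1 and Nip root replicate 2, and at 10.6 to 66.1 FPKM in the other 9 seedling libraries. It was also listed at 0 in all 12 field libraries.

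Members differed widely in level. The mean over the 12 seedling libraries was 100 FPKM or more in 18 members and below 10 in 13, and all but 2 members were above 1 FPKM in every one of them. In the field organs, 41 members stayed at or below 1 FPKM in all 12 libraries. Besides MH05g0053300, MH02g0602000 and MH03g0545500 were listed at 0 in all 12. A value of 0 in all 6 panicle libraries was listed for 8 members and in all 6 mature leaf libraries for 16.

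The highest minimum score belonged to MH09g0199800. Its young leaf values were 74.1 and 68.1 FPKM in MH63, 63.4 and 58.7 in ZS97, and 60.3 and 47.2 in Nip. Root libraries had 31.6 and 38.7 FPKM in MH63, 40.2 and 39.9 in ZS97, and 43.8 and 42.8 in Nip. All field libraries were listed at 0 except the Nip panicle libraries at 0.138 and 0.200, and young leaf lay above root in every variety without overlap. MH08g0482400, the next in order, had the opposite order of the seedling organs, with 55.5 to 73.4 FPKM in young leaf and 77.2 to 120.1 in root, and at most 1.10 in any field library.

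The next members in order were MH05g0041600, MH02g0392100 and MH09g0326100, with minimum scores of 5.08, 4.52 and 4.52. MH05g0041600 reached 213 and 267 FPKM in MH63 young leaf but only 43.6 and 58.8 in Nip young leaf. MH02g0392100 was likewise at 143 to 170 FPKM in MH63 and ZS97 young leaf and at 57.6 and 69.9 in Nip young leaf. In both genes the Nip young leaf libraries lay below the 4 young leaf libraries of the other varieties. MH10g0333500 and MH04g0403100, with minimum scores of 4.28 and 4.004, repeated this order at lower levels. MH09g0326100 did too, with 52.2 to 63.2 FPKM in MH63 and ZS97 young leaf and 25.999 and 42.7 in Nip.

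MH01g0058700, with a minimum score of 4.31, was uneven between replicates. Its MH63 young leaf libraries had 57.5 and 234 FPKM, and its MH63 mature leaf libraries 0 and 11.5. It was also 1 of the 5 members with the highest mean seedling level, at 266 FPKM over the 12 libraries. In ZS97 panicle replicate 2 its value of 4.66 FPKM was the same as that of another member, MH03g0139900, and both were listed at 0 in the other ZS97 panicle library.

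The member with the highest level was MH11g0661400, which stood at the edge of the list because it was also high in mature leaf. Young leaf libraries had 739 and 331 FPKM in MH63, 4224 and 2596 in ZS97, and 393 and 738 in Nip. Root libraries had 2994 and 2125 in MH63, 4094 and 3140 in ZS97, and 2066 and 2011 in Nip. Root was above young leaf without overlap in MH63 and Nip, while in ZS97 the 2 organs overlapped. Its mature leaf values ran from 122 to 543 FPKM. In panicle it was listed at 0 in 4 of the 6 libraries and at 9.25 and 11.1 FPKM in the others.

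MH02g0493200 was high in every seedling library, with 859 to 1721 FPKM in the 6 young leaf libraries and 1385 to 1916 in the 6 root libraries. Its field values lay between 41.1 and 90.3 FPKM, so it was low there only relative to the seedling. MH07g0279000 had 160 to 375 FPKM in young leaf and 176 to 384 in root, and 6.99 to 47.4 in the field organs.

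Young leaf was compared with root within each variety. The rule set no order between these organs, but it used the same values. It limits how far they can differ, because the lower one sets the score, and by asking for low mature leaf it leaves out genes high in leaves of both stages. The counts below are therefore a description, the shares of all genes called stand beside them as background, and nothing is read from the difference. In MH63 29 members differed, 4 higher in young leaf and 25 higher in root, by limma on log2(FPKM + 1) with Benjamini-Hochberg adjustment at an adjusted p below 0.05 and a log2 difference above 1.5. Among all genes tested, 21.7% were called in MH63, 12.9% higher in young leaf and 8.82% higher in root. In ZS97 26 members differed, 7 higher in young leaf and 19 in root, against 13.6% and 8.41% of all genes tested. In Nip 34 members differed, 4 higher in young leaf and 30 in root, against 14.3% and 14.4% of all genes. Calls among the members were mostly toward root in each variety.

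The median log2 difference of the members, young leaf minus root, was -0.22 in MH63, 0.01 in ZS97 and -0.75 in Nip, and that of all genes tested was 0.02, 0.04 and 0.00. With the libraries set to equal distributions (quantile normalization), the median over all genes moved by -0.12 in MH63 and -0.14 in ZS97. The members' median then lay 0.37 below that of all genes in MH63, 0.11 below it in ZS97 and 0.67 below it in Nip. That scaling gave 3 members higher in young leaf and 24 in root in ZS97. Nothing in the labels says that the 2 replicates of a group came from separate plants, so all p-values here measure the spread between libraries, which may be technical.

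Of the 150 members, 55 were called in at least 1 variety, against 38.6% of all genes tested in each variety, and none was called in opposite directions. In each of the 3 varieties, 10 members were higher in root and 1 was higher in young leaf. Over all genes these classes held 5.59% and 8.72%. In 2 varieties, 9 members were higher in root and 3 in young leaf, and in a single variety 26 and 6. Of the 20169 genes tested in each variety, 705 were higher in root and 912 in young leaf in 2 varieties. In a single variety these numbers were 1947 and 1400. The 10 members higher in root in each variety were MH01g0080300, MH01g0216800, MH02g0218000, MH02g0513900, MH03g0271100, MH05g0133200, MH05g0518800, MH06g0088300, MH11g0451100 and MH11g0547900.

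MH03g0271100 showed the largest mean difference toward root. Its young leaf values were 8.94 and 13.7 FPKM in MH63, 8.24 and 9.07 in ZS97, and 10.1 and 16.2 in Nip. In root it reached 210 and 204 FPKM in MH63, 162 and 167 in ZS97, and 332 and 351 in Nip. The organs were far apart in each variety, and no field library exceeded 0.255 FPKM. The log2 difference was -4.11 ± 0.23 (SE, n = 2 per organ, limma, adjusted p = 4.1e-05) in MH63, -4.10 ± 0.16 (adjusted p = 1.5e-05) in ZS97 and -4.63 ± 0.21 (adjusted p = 9.5e-06) in Nip.

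MH02g0513900 and MH11g0547900 followed the same course at somewhat lower root levels. MH02g0513900 had 3.43 to 14.0 FPKM in young leaf and 104 to 204 in root, and its log2 difference lay between -4.66 in Nip and -3.44 in ZS97. MH11g0547900 had 6.04 to 14.9 FPKM in young leaf and 104.6 to 138.9 in root, with differences between -3.96 in MH63 and -3.32 in Nip. In both genes every root library lay above every young leaf library.

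MH06g0088300 combined a place among the 10 highest scores with a strong preference for root. It had 15.5 to 29.6 FPKM in the 6 young leaf libraries. In root it had 252 and 284 FPKM in MH63, 491 and 491 in ZS97, and 141 and 140.5 in Nip. The root levels of the varieties did not overlap, and the log2 difference was -3.36 ± 0.20 in MH63, -4.68 ± 0.21 in ZS97 and -2.40 ± 0.11 in Nip (SE). The spread of 2.27 between these differences passed the test of the difference between varieties (limma F test, adjusted p = 0.0013).

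MH11g0545500 was the single member higher in young leaf in each variety. Its young leaf values were 1080.4 and 698 FPKM in MH63, 639 and 439 in ZS97, and 124.8 and 179 in Nip. In root it had 30.97 and 22.05 FPKM in MH63, 17.5 and 18.7 in ZS97, and 28.5 and 28.1 in Nip. Young leaf was above root in every library, and the levels of root overlapped between MH63 and Nip, while those of young leaf did not overlap between Nip and the others. The log2 difference was 5.001 ± 0.38 (SE) in MH63, 4.80 ± 0.47 in ZS97 and 2.36 ± 0.44 in Nip (limma, adjusted p = 0.00013, 0.00044 and 0.0039).

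**Figure D2:**
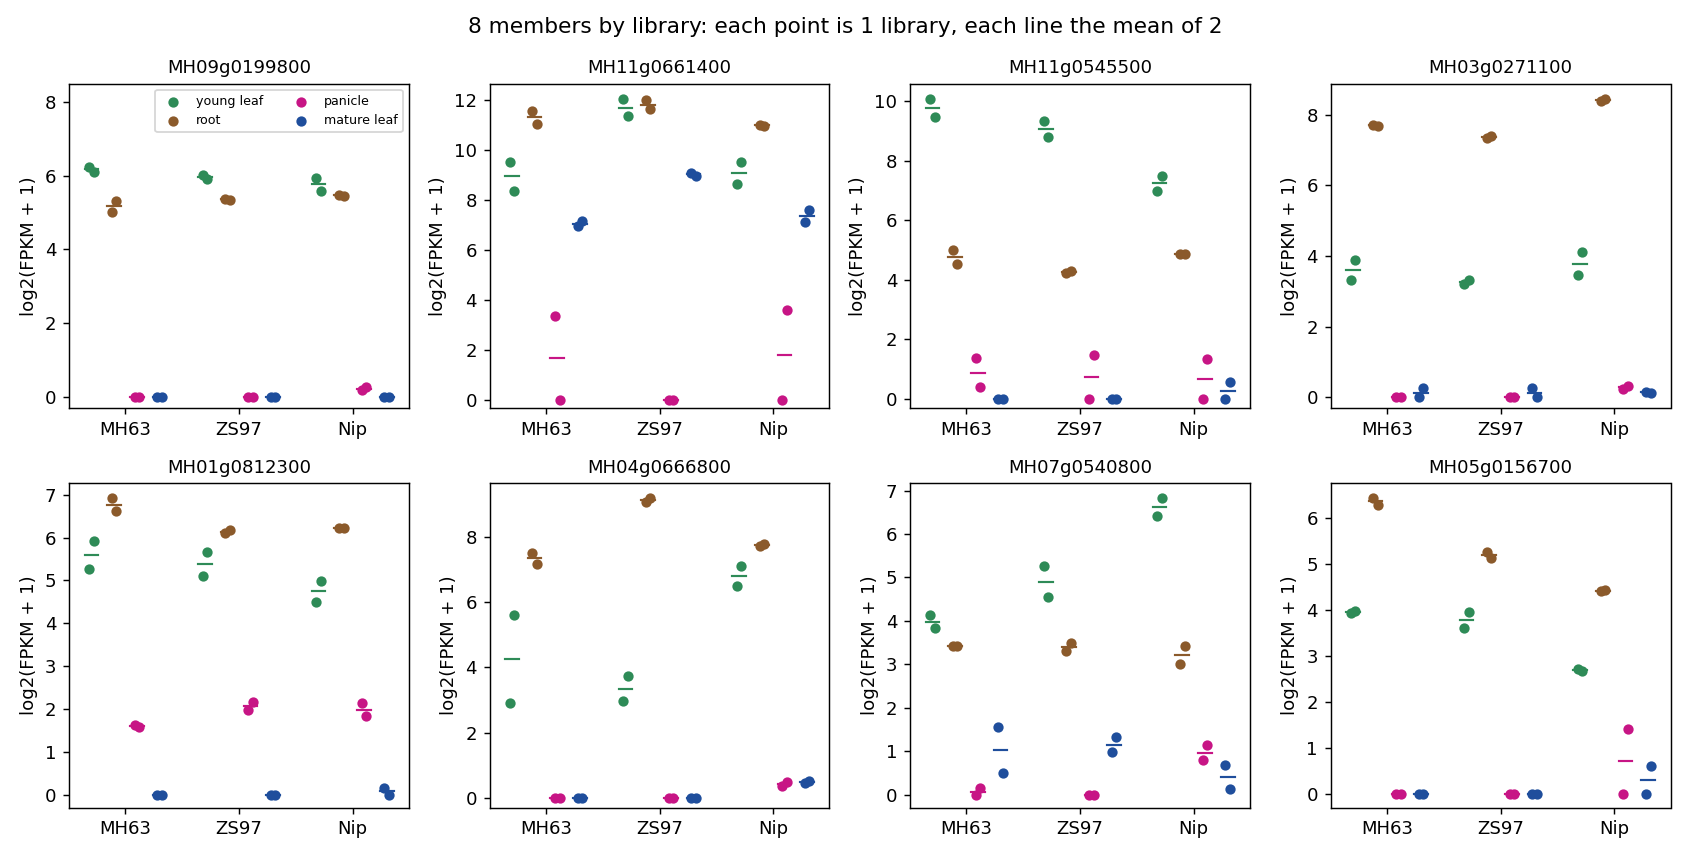
Each panel is 1 of 8 members, each point 1 library, each short line the mean of 2 libraries, and the vertical axis is log2(FPKM + 1). MH03g0271100 is higher in root in all 3 varieties and MH11g0545500 in young leaf, while MH04g0666800 and MH07g0540800 change the size of their young leaf to root difference with the variety.

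Whether the difference between young leaf and root itself depended on the variety was tested over the 12 seedling libraries. It was called in 42 members (limma F test of the interaction, Benjamini-Hochberg adjusted p below 0.05 and a spread above 1.5 on the log2 scale). That is 28.0% of the members, beside 15.4% of all genes tested. The rule used these same values and asked for high levels in both organs of every variety. Both shares are therefore a description, and nothing is read from their difference. In 32 of the 42, Nip lay apart from the other varieties with the lowest young leaf minus root value. This was 76.2% of the members called, and 47% of all genes called had the same arrangement. In 5 members Nip lay apart on the high side, and in the other 5 MH63 or ZS97 lay apart.

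All of these 32 members had their lowest young leaf level in Nip, and 24 of them also had their highest root level in Nip. In 13 the sign differed, with young leaf above root in MH63 and ZS97 and below it in Nip. Of the 32, 17 passed the test as higher in root within Nip. These 32 were picked for a low young leaf minus root value in Nip, so such counts are in part built in. The same counts over all genes with this arrangement are not given here, and nothing is read from them. When the fit held only MH63 and ZS97, an alternative chosen after the data were seen, 1 member passed, against 1.96% of all genes. The count over the 3 varieties was between 30 and 50 when single libraries were left out.

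**Figure D3:**
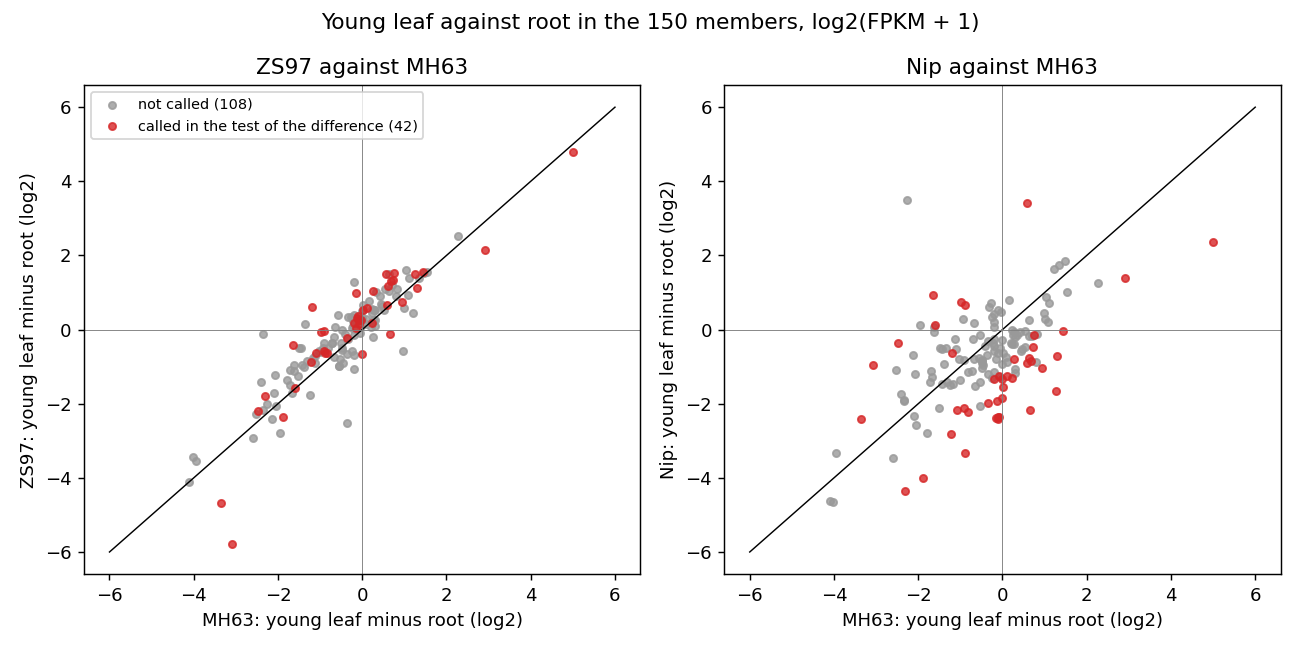
Each point is 1 of the 150 members, and the axes give young leaf minus root on log2(FPKM + 1) in MH63 (horizontal) and in ZS97 or Nip (vertical), with a line of equal values. The 42 members called in the test of the difference are in red, and 32 of them have Nip apart with the lowest value. MH04g0666800, at -3.08 in MH63 and -5.78 in ZS97, lies far below the line for ZS97.

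MH04g0666800 had the largest spread among the members called, 4.81 on the log2 scale (adjusted p = 0.021). Its young leaf values were 6.51 and 47.7 FPKM in MH63, 6.77 and 12.3 in ZS97, and 88.4 and 136 in Nip. Its root values were 181 and 143 in MH63, 535 and 579 in ZS97, and 212 and 219 in Nip. Root libraries lay above young leaf libraries in each variety, by the smallest margin in Nip, and the MH63 young leaf libraries differed from each other by more than those of ZS97. This call was lost in 6 of the 12 fits without 1 library.

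MH04g0011800 and MH03g0330800 changed sign between varieties. MH04g0011800 had 83.3 and 57.1 FPKM in MH63 young leaf, 57.3 and 53.4 in ZS97 young leaf and 10.3 and 13.7 in Nip young leaf. Root levels were 29.2 and 27.3 in MH63, 18.2 and 19.6 in ZS97, and 39.1 and 40.3 in Nip. Young leaf was thus above root in MH63 and ZS97 and below it in Nip without overlap, a spread of 3.16 (adjusted p = 0.00022). MH03g0330800 had 13.7 to 17.9 FPKM in young leaf of MH63 and ZS97 against 3.17 and 4.73 in Nip. Its root values were 18.7 and 13.8 in MH63, 6.99 and 7.85 in ZS97, and 25.2 and 24.1 in Nip, for a spread of 3.38 (adjusted p = 0.00034).

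MH07g0540800 went the other way. It had 16.6 and 13.2 FPKM in MH63 young leaf, 37.4 and 22.3 in ZS97 and 84.8 and 112 in Nip, and the varieties did not overlap. Its root values stayed between 7.05 and 10.3 FPKM in all 6 root libraries. The young leaf minus root difference was 0.57 in MH63, 1.50 in ZS97 and 3.41 in Nip, a spread of 2.84 (limma F test, adjusted p = 0.0022).

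Within a single organ, 22 members differed across the 3 varieties in young leaf and 21 in root, or 14.7% and 14.0% of the members. Of all genes tested, 14.6% differed in young leaf and 15.2% in root. The rule used these same values and asked for high levels in both organs of every variety. These shares and the Nip shares that follow are therefore a description, and nothing is read from them. MH02g0103600 and MH03g0330800 were the only members called in both organs. Nip lay apart on the low side in 17 of the 22 young leaf calls (77.3%, against 46.8% of all genes called) and in 9 of the 21 root calls (42.9%, against 41.7%).

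Of the 150 members, 109 had their lowest young leaf level in Nip and 30 their highest. The Nip young leaf libraries also had smaller FPKM sums, 516680 and 598601 against 654160 to 761333 in MH63 and ZS97. Their relative depths were 0.440 and 0.231 against 0.898 to 1.08, and the part of depth was not tested. The median member had 21.7 and 25.5 FPKM in the MH63 young leaf libraries, 20.8 and 23.3 in those of ZS97, and 12.4 and 17.1 in those of Nip. Both Nip young leaf libraries lay below all 4 of the other varieties in 85 members (56.7%), and above them in 11 (7.33%). Over all genes tested, these shares were 36.5% and 13.9%. In root, both Nip libraries lay below the 4 others in 48 members (32.0%) and above them in 40 (26.7%), against 37.3% and 22% of all genes. These counts were chosen after the data were seen. The rule used the same values, and Nip gave the lowest score for 91 members. The shares are therefore a description, and nothing is read from their difference. By the numbering of their value columns, the Nip libraries may have been quantified in another run than the MH63 and ZS97 seedling libraries. The sample titles name no run. All reads were assigned to MH63 genes. Such a run, this assignment and the variety cannot be told apart.

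The young leaf calls across varieties rested on every library. Leaving out MH63 replicate 1 or 2 gave 7 or 4 members, leaving out ZS97 replicate 1 or 2 gave 4 or 3, and leaving out Nip replicate 1 or 2 gave 1 or 11. With MH63 and ZS97 only, 0 members were called by limma and 12 had an unadjusted p below 0.05, while 2.55% of all genes were called. The root calls numbered 21 to 23 when single libraries were left out. With MH63 and ZS97 only, 3 members were called in root by limma and 91 had an unadjusted p below 0.05, while 4.67% of all genes were called.

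Among the members called, those with the largest spread in young leaf were MH11g0661400, MH07g0540800, MH11g0545500 and MH01g0758000, with spreads of 2.74, 2.64, 2.53 and 2.53 on the log2 scale (limma F test, adjusted p = 0.040, 0.011, 0.019 and 0.032). Each of these 4 calls was lost in at least 4 of the 6 fits without 1 library. MH11g0661400 was highest in ZS97 and MH11g0545500 in MH63. MH01g0758000 was highest in Nip, at 20.4 and 26.99 FPKM, against 7.15 and 2.64 in MH63 and 4.39 and 2.35 in ZS97.

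In root, MH07g0469300 had the largest spread among the members called. It had 79.3 and 55.1 FPKM in MH63, 30.9 and 27.1 in ZS97, and 9.81 and 14.4 in Nip. MH05g0156700 had the same order, with 84.8 and 76.7, 37.0 and 33.9, and 20.1 and 20.5 FPKM. MH06g0044600 did as well, with 29.2 and 26.9, 14.7 and 16.7, and 5.11 and 7.96 FPKM. In these 3 genes the varieties did not overlap, and MH63 was highest and Nip lowest, with spreads of 2.38, 1.94 and 1.97 (adjusted p = 0.0010, 5.1e-05 and 0.00097).

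MH02g0103600 was lowest in Nip in both seedling organs. Its root values were 19.1 and 35.5 FPKM in MH63, 44.2 and 48.5 in ZS97, and 9.80 and 9.497 in Nip. Young leaf levels were 16.7 and 30.6, 17.02 and 27.8, and 5.02 and 7.30 FPKM in the same order of varieties. Nip did not overlap with the others in either organ. The spread in root was 2.15 (adjusted p = 0.0025), and this call was lost without Nip root replicate 2.

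Panicle and mature leaf could differ only below the ceiling that the rule set, since the higher of both entered the score. The members passed the filter on low values through their seedling levels, and 51 had means at or below 1 FPKM in all 6 field groups. The counts thus depend on the choice of members, and also on the pseudocount as given below, and are a description. In MH63 13 members differed between these organs, 6 higher in panicle and 7 in mature leaf, in ZS97 16 (7 and 9), and in Nip 17 (11 and 6). The shares of all genes called were 37.5%, 34.5% and 32.3%. Of the members, 30 were called in at least 1 variety, against 49.2% of all genes, and none in opposite directions. One organ was listed at 0 in both libraries for 6 of the 13 calls in MH63, 2 of the 16 in ZS97 and 5 of the 17 in Nip.

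The split of these calls depended on the scaling. Quantile normalization gave 5 members higher in panicle and 13 in mature leaf in MH63, 5 and 15 in ZS97, and 6 and 7 in Nip. A pseudocount of 0.1 FPKM gave 57 calls in MH63, 45 in ZS97 and 56 in Nip, of which 24, 28 and 37 were higher in panicle. In MH63 the count was 20 without mature leaf replicate 1. Members listed at 0 in both libraries of an organ numbered 25, 30 and 18 in panicle and 37, 41 and 29 in mature leaf of MH63, ZS97 and Nip.

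**Figure D4:**
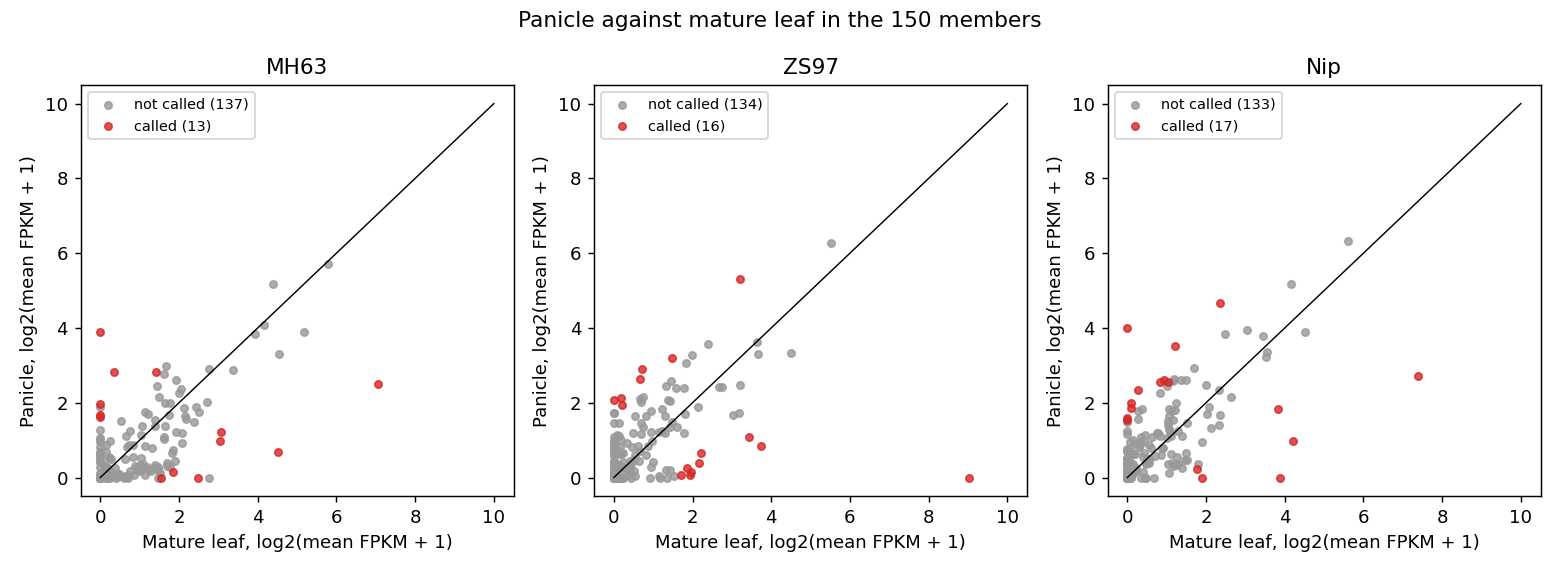
Each point is 1 of the 150 members, with log2(mean FPKM + 1) in mature leaf on the horizontal and in panicle on the vertical axis, and a line of equal values, for each variety. Most members lie near the origin in both organs, and MH11g0661400 is the red point farthest to the right in each panel.

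Only 3 members differed in the same direction in all 3 varieties. MH01g0812300 was higher in panicle, with 2.09 and 2.01 FPKM in MH63, 2.93 and 3.49 in ZS97, and 3.38 and 2.58 in Nip. In mature leaf it was listed at 0 in 5 of the 6 libraries and at 0.118 FPKM in Nip replicate 1. The panicle level was therefore small beside its 21.7 to 59.8 FPKM in young leaf and 67.7 to 120.0 in root. Over all genes, 13.2% were higher in panicle and 12.8% higher in mature leaf in each variety.

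MH02g0589300 was higher in mature leaf. It had 20.6 and 23.5 FPKM there in MH63, 13.2 and 11.3 in ZS97, and 17.5 and 17.5 in Nip, while its 6 panicle libraries lay between 0.475 and 1.15 FPKM. The log2 difference, panicle minus mature leaf, was -3.84 ± 0.14 (SE) in MH63, -2.92 ± 0.19 in ZS97 and -3.24 ± 0.11 in Nip (limma, adjusted p = 5.4e-06, 4.7e-05 and 2.5e-06). Young leaf levels were also high, 169.1 to 184 FPKM in MH63 and ZS97 and 60.1 and 63.4 in Nip. MH11g0661400 was the other member higher in mature leaf, with differences of -5.37 ± 1.02 in MH63 and -5.57 ± 1.06 in Nip (adjusted p = 0.0038 and 0.0039), and with both ZS97 panicle libraries listed at 0.

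The members were spread over all 12 chromosomes, from 4 on chromosome 12 to 21 on chromosome 3. Chromosome 3 held 14% of the members with 10.5% of the genes. Chromosome 5 held 18 members, or 12%, with 7.92% of the genes, and chromosome 12 held 2.67% of the members with 6.18% of the genes. Gene positions are given here only by the order of identifiers in the table. Consecutive identifiers were found for 3 pairs of members, on chromosomes 1, 3 and 7. No background count is given for these pairs or for the run on chromosome 7 below, so both are a description. Neighbours can be copies that share reads, and their sequences were not analysed here.

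The pair MH01g0687600 and MH01g0687700 differed in the seedling. MH01g0687600 had 15.5 to 25.2 FPKM in MH63 and ZS97 young leaf and 6.46 to 7.90 in their roots, but 4.42 and 8.42 in Nip young leaf and 10.1 and 11.6 in Nip root. This change of order passed the test of the difference between varieties, with a spread of 2.02 (adjusted p = 0.0082). MH01g0687700 had 7.13 to 21.5 FPKM in young leaf and 15.9 to 25.8 in root.

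The pair MH03g0139900 and MH03g0140000 kept panicle transcripts. MH03g0139900 was listed at 0 in all 6 mature leaf libraries and had 10.0 and 17.8 FPKM in MH63 panicle, 0 and 4.66 in ZS97 panicle, and 17.9 and 11.98 in Nip panicle. It was called higher in panicle in MH63 and Nip and was at 74.6 FPKM or more in all 12 seedling libraries. MH03g0140000 had 1.45 to 5.13 FPKM in the 6 panicle libraries and 0 to 2.14 in the 6 mature leaf libraries, and was called in ZS97 (log2 difference 1.82 ± 0.39, limma, adjusted p = 0.0079).

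The densest run lay on chromosome 7, where 5 members, MH07g0469100, MH07g0469300, MH07g0469400, MH07g0469700 and MH07g0471000, fell within 20 consecutive genes. MH07g0469400 was the highest of the 5 in score. In young leaf it had 26.1 and 39.2 FPKM in MH63, 17.5 and 25.5 in ZS97, and 16.5 and 23.7 in Nip. In root it had 79.0 and 63.2 in MH63, 39.6 and 41.7 in ZS97, and 21.3 and 26.3 in Nip. Root exceeded young leaf without overlap in MH63 and ZS97, and in Nip the organs overlapped.

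The nearer neighbours had the same order of organs. MH07g0469700 had 10.99 to 26.4 FPKM in young leaf and 29.3 to 51.6 in root, and MH07g0469100 had 3.74 to 7.72 and 11.5 to 37.8. MH07g0471000, the most distant of the 5, had similar levels in both organs, with 4.48 to 15.5 FPKM in young leaf and 3.41 to 16.8 in root. In MH63 MH07g0469100 and MH07g0469300 passed the test as higher in root (log2 difference -2.08 ± 0.30 and -1.71 ± 0.38, SE, adjusted p = 0.0019 and 0.012), and MH07g0469400, MH07g0469300 and MH07g0471000 were called across varieties in root, with Nip lowest in each.

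Other genes of the run behaved differently. MH07g0469200, between 2 members, had the same pattern but fell outside the list, with means of 14.2 and 34.7 FPKM in MH63 young leaf and root and at most 0.796 in a field organ. MH07g0469500 was at 13.1 to 27.9 FPKM on average in young leaf of the varieties and was listed at 0 in root. MH07g0469600 had a mean of 15.8 FPKM in Nip young leaf and was listed at 0 in every MH63 and ZS97 library. These 3 genes were named after their values were seen.

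**Figure D5:**
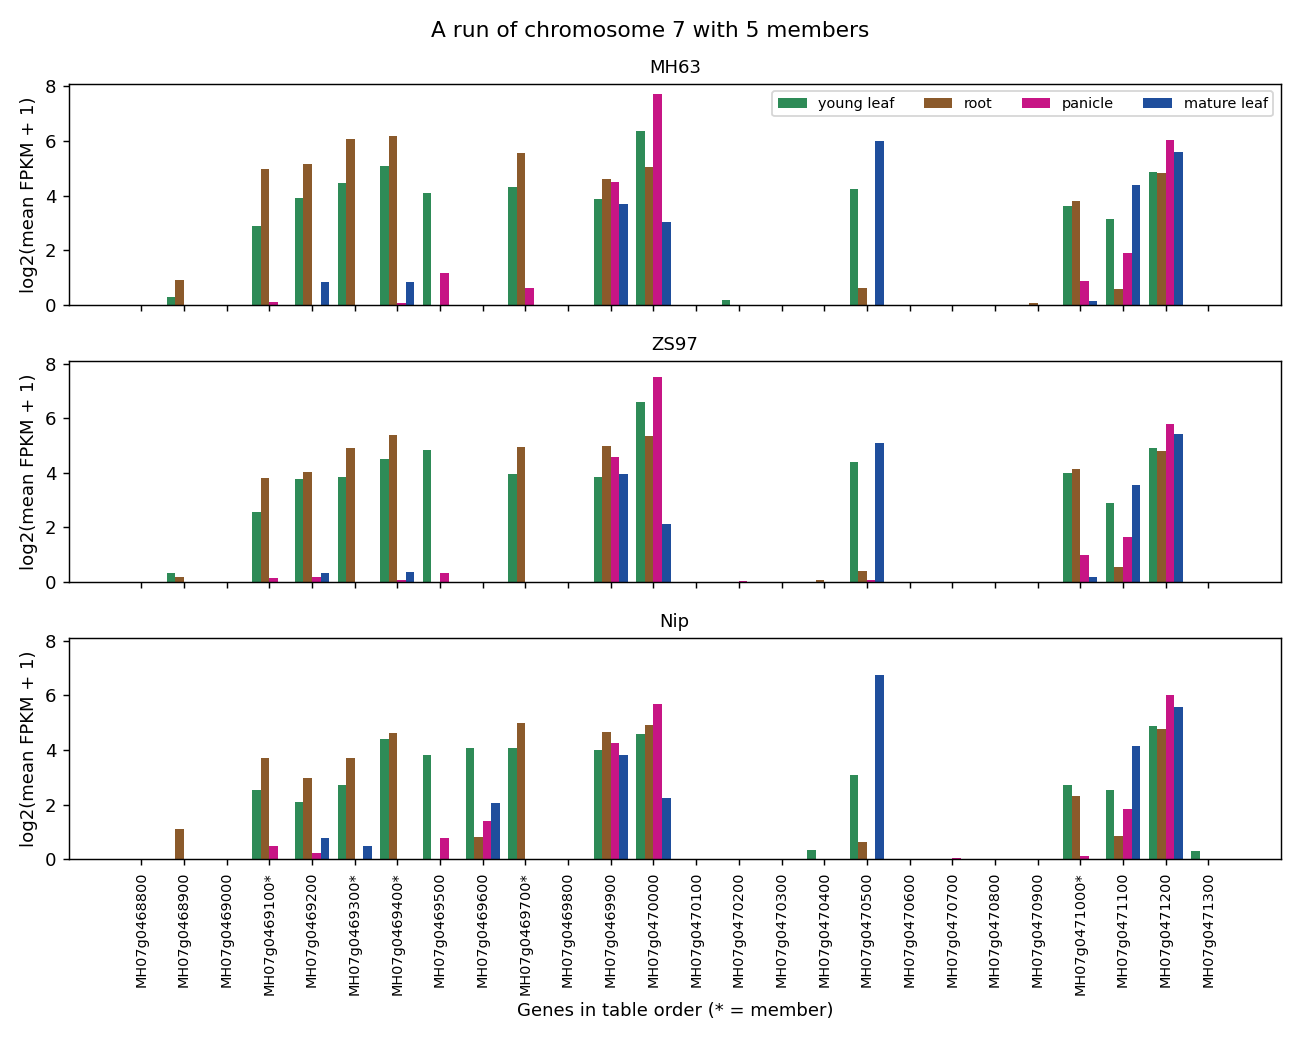
Bars give log2(mean FPKM + 1) of 2 libraries for 4 organs in 26 genes of chromosome 7 in table order, 1 panel per variety, with members marked by a star. The 5 members have green and brown bars for young leaf and root and nearly no bars for panicle and mature leaf, while the other genes of the run differ in which organs have bars.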

How the data were processed

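Per the methods of the study, the authors trimmed reads with Trimmomatic, mapped them to a rice genome with TopHat and estimated transcript levels with Cufflinks. The deposited unit is FPKM per gene and library, listed by MH63 identifiers for the 24 libraries used. The 34 libraries of 17 other varieties use other identifiers and were not used. The members and the lists were chosen with earlier results of these data known. Values were compared on log2(FPKM + 1) with limma (3.58.1, R 4.3.3; lmFit, eBayes with trend, two-sided, Benjamini-Hochberg over all genes tested), for genes above a mean of 1 FPKM in at least 1 group. All 150 members passed this filter, which their seedling levels ensured. The scale understates changes of low genes. Organs were compared in 1 fit per variety with its 8 libraries, varieties within an organ in 6 libraries and the interaction in 12. Genes were called at an adjusted p below 0.05 and a log2 difference above 1.5. FPKM hold no counts, so counting error is unknown and zeros can be failed estimates. Relative depth came from steps between values of 0.001 and 0.3 FPKM. Reads of ZS97 and Nip that match no MH63 gene would be missing, which was not tested. Genes were named by a rule: the 10 highest scores, the 5 highest seedling levels, 3 on each side of the limit, the largest differences among calls, and consecutive identifiers. Alternatives were a pseudocount of 0.1, quantile normalization, no filter, a replicate block and leaving out libraries. The steps were tested on simulated data. Python 3.11.15, numpy 2.4.6 and pandas 2.3.3 were used.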

Additional observations from a re-analysis of the deposited data

Results flagged for a closer look

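The young leaf against root difference varied with the variety in 42 members (28.0%) by the limma F test of the interaction. Of all genes tested, 15.4% were called. The rule used these same values, so both shares are a description and nothing is read from their difference. Among the 42 members, the largest spreads of the young leaf against root difference over the 3 varieties were those of MH04g0666800 (4.81 on the log2 scale), MH03g0330800 (3.38), MH04g0011800 (3.16) and MH07g0540800 (2.84). The young leaf minus root values in MH63, ZS97 and Nip were -3.08, -5.78 and -0.96 for MH04g0666800, -0.14, 0.99 and -2.39 for MH03g0330800, 1.26, 1.50 and -1.66 for MH04g0011800, and 0.57, 1.50 and 3.41 for MH07g0540800. The part of library depth in these differences was not tested. The call of MH04g0666800 was lost in 6 of the 12 fits without 1 library.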

How the results depend on the processing

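The list shared 104 of its 150 members with that from a pseudocount of 0.1, 124 with quantile normalization, 129 with the lowest seedling and highest field library in place of means, and at least 122 without a replicate number. The pseudocount of 0.1 raised the calls between panicle and mature leaf to 57 in MH63, 45 in ZS97 and 56 in Nip, and without single libraries the MH63 count was 11 to 20. Calls across varieties in young leaf fell to 13 with quantile normalization and to 1 to 11 without single libraries. With MH63 and ZS97 only, chosen after seeing the data, 0, 3 and 1 members were called in young leaf, in root and in the test of the young leaf to root difference. All other total counts of members called stayed within 1.5 times under every alternative run. Counts by direction moved more in places. With quantile normalization, members higher in young leaf than root in ZS97 went from 7 to 3. Those higher in mature leaf than panicle in MH63 went from 7 to 13. Of 36 named gene and comparison pairs with 456 values under alternatives, 34 values lost the call, none reversed, and the cause was not tested. Deviations of same-numbered libraries correlated at 0.51 between MH63 and ZS97 young leaf, so replicate numbers went together there. In the other pairs of groups the correlation lay between -0.05 and 0.04. The main fits and those with MH63 and ZS97 only held no replicate block, so this shared part counts as spread in them. With the replicate block, 29, 27 and 34 members were called in young leaf against root in MH63, ZS97 and Nip, 13, 16 and 17 in panicle against mature leaf, 23 and 21 across varieties in young leaf and root, and 46 in the test of the difference. The 23 in young leaf held 19 of the 22 called without the block, so 3 calls were lost and 4 gained.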
